A study of Homo sapiens with 6 samples.

Results

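Mitochondrial ribosomal protein genes were taken as the protein-coding genes of the GRCh38 gene table whose symbol is MRPL or MRPS followed by a number and, in some, a letter from A to C, and 78 of the 46427 genes listed met this rule (19672 of the 46427 are protein-coding). RNA was sequenced from MDA-MB-231 cells, an established human breast cancer cell line of mesenchymal character, transfected with DharmaFECT4 and either control-siRNA (3 libraries) or TAZ-siRNA, a commercial siRNA product against WWTR1, the gene that encodes the transcriptional coactivator TAZ (3 libraries). Both groups are the same line, both received transfection reagent and siRNA, and the libraries of a group came from separate cell preparations. A single siRNA product was used, so the loss of TAZ and other effects of that product cannot be told apart.

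Mitochondria carry their own ribosome, which is built from rRNA transcribed from mitochondrial DNA and from proteins that are encoded in the nucleus, made in the cytosol and imported. It translates only the mRNAs of mitochondrial DNA, which encode core subunits of the respiratory chain and the ATP synthase. Many of its proteins have a counterpart in bacterial ribosomes, whereas others are found only in mitochondria, and the symbol prefixes MRPL and MRPS name the large and the small subunit with a few exceptions. MRPS18A and MRPS30 belong to the large subunit, and MRPS36 is a component of the 2-oxoglutarate dehydrogenase complex and not of the ribosome.

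Total counts per library ranged from 48307548 to 71749634. WWTR1 itself was at 190 to 192 CPM (counts scaled to a common, normalised library size) with control-siRNA and at 15.1 to 17.3 CPM with TAZ-siRNA, which gave a log2 fold change of -3.53 ± 0.0613 (SE, n = 3 per group). Of the markers of the line, VIM (3785 TPM, a level scaled for transcript length and to a common total per library), KRT18 (827 TPM), CD44 (258 TPM), AXL (201 TPM) and SPARC (46.7 TPM) were all detected. The luminal markers ESR1 and PGR were too low to be tested, CDH1, EPCAM, FOXA1 and GATA3 were at 0.0989 to 5.90 TPM and ERBB2 was at 23.6 TPM. PTPRC, CD3E and HBB, which mark blood cells, were also too low to be tested, and PECAM1 was at 1.99 TPM. TAZ-siRNA replicate 3 stood apart from the other libraries on the second principal component.

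The first question was whether knockdown of TAZ changed the transcript levels of these genes. All 78 passed the filter on low counts, with 312 to 9418 counts per gene and library, and 23 of them (29.5%) fell at an adjusted p under 0.05 (edgeR's quasi-likelihood test, Benjamini-Hochberg adjustment over 16966 genes tested), against 10.2% of all genes tested. None rose, against 11.9% of all genes tested. No member rose by DESeq2 or limma either, and at an unadjusted p under 0.05 39 members were lower and 0 higher, against 17.4% and 18.4% of all genes tested. The log2 fold change lay below 0 for 74 of 78 members (50.8% of all genes tested) and its median was -0.16, compared with -0.01 over all genes tested, but once GC content and transcript length had been corrected for (GC/length correction) only 52 lay below 0 and the median was -0.06. The changes were small: they ran from -0.39 (MRPS18B) to 0.05 (MRPL49), their standard errors from 0.0439 to 0.137, and no member reached a change of 1.5-fold. In 33 members every TAZ-siRNA library lay below every control-siRNA library (19.6% of all genes tested) and in 0 the reverse was seen (20.0% of all genes tested). In bulk RNA, fewer cells that express a gene and less of its RNA per cell cannot be told apart.

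**Figure D1:**
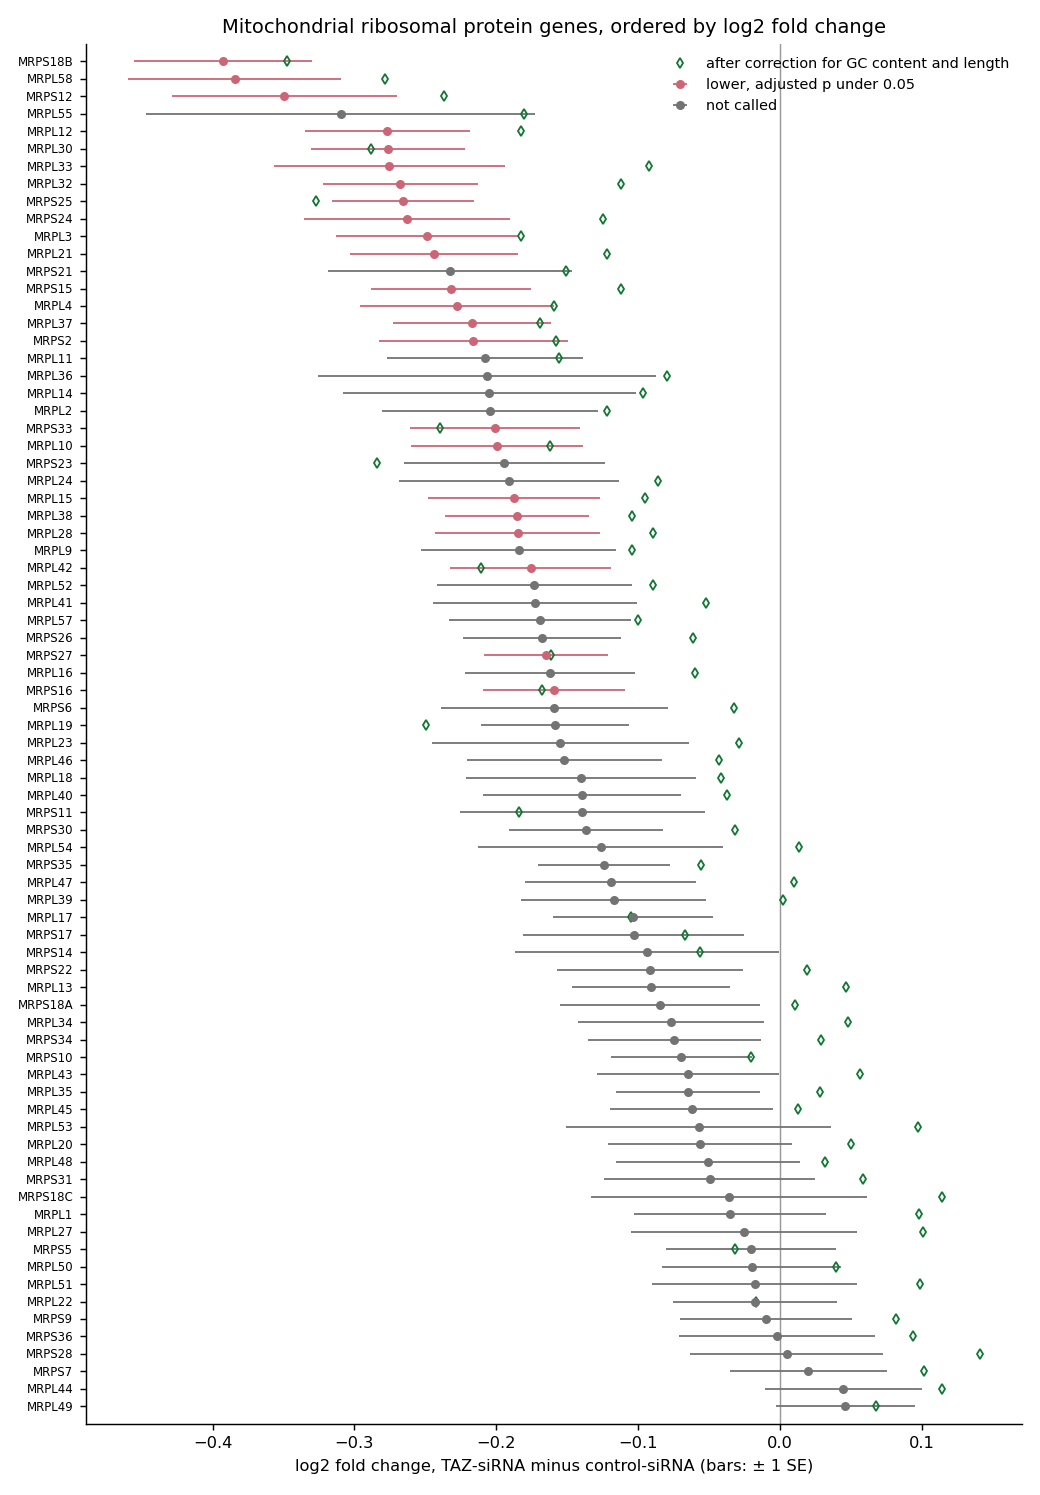
Log2 fold change (TAZ-siRNA minus control-siRNA, horizontal axis) of each of the 78 members, ordered from the lowest to the highest. Filled points are the fitted values with bars of 1 SE, red where the adjusted p was under 0.05, and open green diamonds are the values after the GC/length correction: 74 filled points but only 52 diamonds lie below 0.

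How many members passed the test depended on single libraries. The count was 9 without control-siRNA replicate 1, 6 without control-siRNA replicate 2, 7 without control-siRNA replicate 3, 6 without TAZ-siRNA replicate 1 and 9 without TAZ-siRNA replicate 2, whereas it rose to 46 without TAZ-siRNA replicate 3. In the same order, 5.74%, 4.84%, 5.32%, 5.22%, 6.72% and 16.1% of all genes tested were lower, and 7.40%, 6.39%, 6.75%, 6.68%, 8.62% and 17.6% were higher. The 6 members that fell in every one of these 6 fits were MRPL12, MRPL30, MRPL32, MRPL58, MRPS18B and MRPS25. The share of all genes tested that fell in every one of them was not computed, so this count has no comparison.

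The count also moved with the fit, and so did the share of all genes tested that were called. DESeq2 called 26 members lower, against 12.8% of all genes tested lower and 14.4% higher. limma called 17 on log2(FPKM + 1), against 8.23% and 8.35%, and 17 on log2(FPKM + 0.1), against 8.27% and 8.48%. edgeR called 24 with upper-quartile factors (10.4% and 11.6%), 22 with no filter on low counts (5.98% and 6.61%) and 26 among genes with at least 10 counts in every library (11.4% and 13.2%). At an adjusted p under 0.01 the count was 6, against 4.38% lower and 5.76% higher. With the replicate number as a block it was 37 (14.9% and 15.3%). No member was higher in any of these fits.

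The members were expressed at moderately high levels. Their mean over the 6 libraries had a median of 72.8 TPM, compared with 18.0 TPM over the protein-coding genes tested, and the quartiles were 42.7 and 93.5 TPM. At or above 100 TPM were 14 members, and 1 member lay below 10 TPM. The highest was MRPL33 (254 ± 7.39 TPM with control-siRNA and 218 ± 20.1 TPM with TAZ-siRNA, SD, n = 3), followed by MRPL3 (179 ± 2.87 and 156 ± 9.98 TPM), MRPL12 (171 ± 1.58 and 147 ± 3.74 TPM), MRPS24 (155 ± 2.61 and 134 ± 7.20 TPM) and MRPL51 (133 ± 6.06 and 136 ± 6.15 TPM). The lowest were MRPL42 (9.78 TPM over all libraries), MRPS33 (12.9 TPM), MRPS14 (15.2 TPM), MRPS11 (16.4 TPM) and MRPS25 (18.3 TPM), so that the highest member was 24.2 times the lowest. This ranking depends on the transcript length given to each gene. In CPM, which is not scaled for length, MRPL42 (15565 bases) had a control-siRNA mean of 73.1 and MRPL55 (894 bases) one of 9.47. The order of the members by level was nearly the same in both groups, with MRPL33, MRPL3 and MRPL12 at the top and MRPL42 at the bottom of each.

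The 8 largest falls among members that passed the test and whose groups did not overlap comprised 5 genes of the large subunit and 3 of the small subunit. MRPL58 (chr17:75012670-75021261), a peptidyl-tRNA hydrolase built into the large subunit that releases chains from stalled ribosomes, was measured at 32.3, 30.1 and 33.7 CPM with control-siRNA and at 22.1, 25.5 and 26.1 CPM with TAZ-siRNA (log2 fold change -0.38 ± 0.0749, adjusted p = 0.00531). MRPL12 (chr17:81703367-81707517), the counterpart of the bacterial stalk protein that recruits translation factors, was at 78.8, 77.7 and 82.2 CPM with control-siRNA and at 61.9, 64.6 and 70.6 CPM with TAZ-siRNA (-0.28 ± 0.0580, adjusted p = 0.00744). In both genes the lowest control library lay clearly above the highest TAZ-siRNA library. MRPL30 (chr2:99181184-99199561), a further protein with a bacterial counterpart, was at 70.2, 72.1 and 78.0 CPM with control-siRNA and at 60.5, 59.0 and 62.4 CPM with TAZ-siRNA (-0.28 ± 0.0546, adjusted p = 0.00568). These 3 genes, with MRPS18B, fell under each of the 19 fits and corrections computed, although the fall of MRPL12 was smaller with the GC/length correction (-0.18) and with length alone (-0.17). How large a share of all genes tested fell under each of the 19 was not computed.

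The promoters of MRPL58, MRPL12 and MRPL30 are shown because their calls held throughout. MRPS18B is not shown because its window holds fewer than 100 bases outside the transcripts that the table lists. Each line is the sequence just before the RefSeq start of transcription (GRCh38.p14, plus strand), cut back where the table lists a transcript of another gene. Capitals mark a match to the ETS/GABP motif CCGGAAG or the NRF1 motif (GCGC, then A and any base, then GCGC) on either strand, both bound by regulators of nuclear genes for mitochondria.
MRPL58, chr17:75012420-75012669: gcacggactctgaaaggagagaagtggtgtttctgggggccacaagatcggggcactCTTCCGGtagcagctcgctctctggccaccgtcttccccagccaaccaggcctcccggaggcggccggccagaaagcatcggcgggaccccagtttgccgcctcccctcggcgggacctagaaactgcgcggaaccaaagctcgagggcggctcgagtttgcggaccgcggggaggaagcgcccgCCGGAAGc
MRPL12, chr17:81703117-81703366: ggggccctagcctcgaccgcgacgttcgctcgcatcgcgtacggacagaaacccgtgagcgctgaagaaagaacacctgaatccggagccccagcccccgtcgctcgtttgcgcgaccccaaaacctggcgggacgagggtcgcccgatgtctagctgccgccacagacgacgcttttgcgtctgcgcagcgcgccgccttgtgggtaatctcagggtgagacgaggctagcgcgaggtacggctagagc
MRPL30, chr2:99181062-99181183: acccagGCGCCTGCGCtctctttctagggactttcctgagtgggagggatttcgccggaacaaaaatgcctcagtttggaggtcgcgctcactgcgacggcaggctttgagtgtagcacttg
MRPL58 holds 2 ETS/GABP matches, 193 and 8 bases before the start, MRPL30 holds 1 NRF1 match 116 bases before it and, in the bases cut off, an ETS/GABP match 145 bases before it, and MRPL12 holds neither set of letters in its window.

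Over the 70 members with a promoter entry (1 or more windows of 250 bases before the start), 25 held the ETS/GABP letters (35.7%, against 17.6% of the 12444 tested genes with an entry and 10.2% of all 27305 genes with one). The NRF1 letters were in 9 members (12.9%, against 11.1% and 6.20%), the YY1 motif ATGGCGG in 5 (7.14%, against 5.22% and 3.44%), the E-box CACGTG in 9 (12.9%, against 10.8% and 7.73%) and the TEAD motif GGAATG, read by the factors that TAZ binds, in 11 (15.7%, against 13.1% and 14.3%). All were searched on both strands, and none of these motifs contains another. Among the members that fell, 6 of 20 held the ETS/GABP letters and 3 of 20 the TEAD letters, and among those not called 19 of 50 and 8 of 50. These are counts of letters and describe no binding.

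The remaining 2 large subunit genes of this group are short. MRPL33 (chr2:27771717-27779741), a small protein with a bacterial counterpart, was at 57.8, 54.8 and 57.4 CPM with control-siRNA and at 40.6, 47.9 and 52.1 CPM with TAZ-siRNA (-0.28 ± 0.0815, adjusted p = 0.0350). MRPL32 (chr7:42932376-42937857), which is cleaved by a mitochondrial protease before it joins the ribosome, was at 49.1, 50.9 and 49.3 CPM with control-siRNA and at 40.2, 40.4 and 43.5 CPM with TAZ-siRNA (-0.27 ± 0.0544, adjusted p = 0.00649). After the GC/length correction neither passed the test, with -0.09 (adjusted p = 0.318) for MRPL33 and -0.11 (adjusted p = 0.111) for MRPL32. MRPL33 also did not pass when any library other than TAZ-siRNA replicate 3 was left out (adjusted p between 0.0691 and 0.118).

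In the small subunit, MRPS18B (chr6:30617320-30626393) had the largest fall of all members. It was at 60.3, 60.4 and 66.8 CPM with control-siRNA and at 46.0, 46.0 and 50.8 CPM with TAZ-siRNA (log2 fold change -0.39 ± 0.0628, adjusted p = 0.00193), so that the TAZ-siRNA mean was 76.1% of the control mean. MRPS12 (chr19:38930944-38933168), the counterpart of the bacterial protein at the decoding site, was at 31.7, 34.5 and 36.2 CPM with control-siRNA and at 24.0, 27.3 and 29.1 CPM with TAZ-siRNA (-0.35 ± 0.0792, adjusted p = 0.0109). Its adjusted p was 0.0554, 0.0556 and 0.0528 without control-siRNA replicate 2, control-siRNA replicate 3 and TAZ-siRNA replicate 1, respectively. MRPS25 (chr3:15042251-15065315), a protein of the small subunit that bacteria lack, was at 57.4, 60.1 and 57.9 CPM with control-siRNA and at 48.3, 50.0 and 47.6 CPM with TAZ-siRNA (-0.27 ± 0.0501, adjusted p = 0.00455). MRPS25 showed the narrowest spread of the 8, and it kept its call after the GC/length correction (-0.33, adjusted p = 0.000371) but not in limma on FPKM (-0.17, adjusted p = 0.0586 with a pseudocount of 1, and -0.20, adjusted p = 0.0612 with 0.1).

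MRPS18B is one of 3 human counterparts of a single bacterial protein, and the other two did not pass the test. MRPS18A, which sits in the large subunit, was at 32.0, 31.1 and 33.6 CPM with control-siRNA and at 29.1, 28.7 and 33.5 CPM with TAZ-siRNA (-0.08 ± 0.0705, adjusted p = 0.430). MRPS18C, which sits in the small subunit, was at 19.9, 20.7 and 21.4 CPM with control-siRNA and at 17.3, 19.9 and 23.3 CPM with TAZ-siRNA (-0.04 ± 0.0975, adjusted p = 0.825). The groups overlapped in both, and TAZ-siRNA replicate 3 was the highest TAZ-siRNA library in each. Whether MRPS18B differed from these genes in its response was not tested.

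The stalk of the large subunit and its base include MRPL10 and MRPL11 beside MRPL12. MRPL10, which anchors the stalk, was at 67.6, 71.9 and 75.9 CPM with control-siRNA and at 59.4, 61.8 and 66.3 CPM with TAZ-siRNA (-0.20 ± 0.0606, adjusted p = 0.0385). MRPL11 was at 49.4, 51.2 and 56.9 CPM with control-siRNA and at 43.3, 44.2 and 48.8 CPM with TAZ-siRNA (-0.21 ± 0.0691, adjusted p = 0.0544). The groups did not overlap in either gene, but only MRPL10 passed the test, and MRPL10 did not pass without control-siRNA replicate 2, control-siRNA replicate 3, TAZ-siRNA replicate 1 or TAZ-siRNA replicate 2 (adjusted p between 0.101 and 0.157). Without TAZ-siRNA replicate 3 the adjusted p of MRPL11 was 0.00420.

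A further 4 genes were described whatever their values. MRPS27, a pentatricopeptide repeat protein of the small subunit, was at 97.0, 99.5 and 99.0 CPM with control-siRNA and at 86.2, 88.0 and 89.3 CPM with TAZ-siRNA (-0.17 ± 0.0439, adjusted p = 0.0226), and it passed with a library left out only without TAZ-siRNA replicate 3 (adjusted p between 0.0535 and 0.108 in the other 5 fits). MRPS34, another small subunit protein that bacteria lack, was at 48.2, 47.2 and 50.6 CPM with control-siRNA and at 43.2, 49.2 and 46.3 CPM with TAZ-siRNA (-0.07 ± 0.0610, adjusted p = 0.420). These 2 genes of the same subunit thus gave separated groups in one case and overlapping groups in the other. MRPL45, which lies near the exit of the peptide tunnel, was at 71.1, 73.1 and 75.4 CPM with control-siRNA and at 67.8, 67.0 and 75.5 CPM with TAZ-siRNA (-0.06 ± 0.0576, adjusted p = 0.480). MRPL44, a protein with a ribonuclease III-like fold, was at 37.7, 39.2 and 40.9 CPM with control-siRNA and at 39.3, 41.3 and 40.9 CPM with TAZ-siRNA (0.04 ± 0.0554, adjusted p = 0.609). MRPL44 was with MRPL49, MRPS7 and MRPS28 one of the 4 members whose log2 fold change was above 0.

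**Figure D2:**
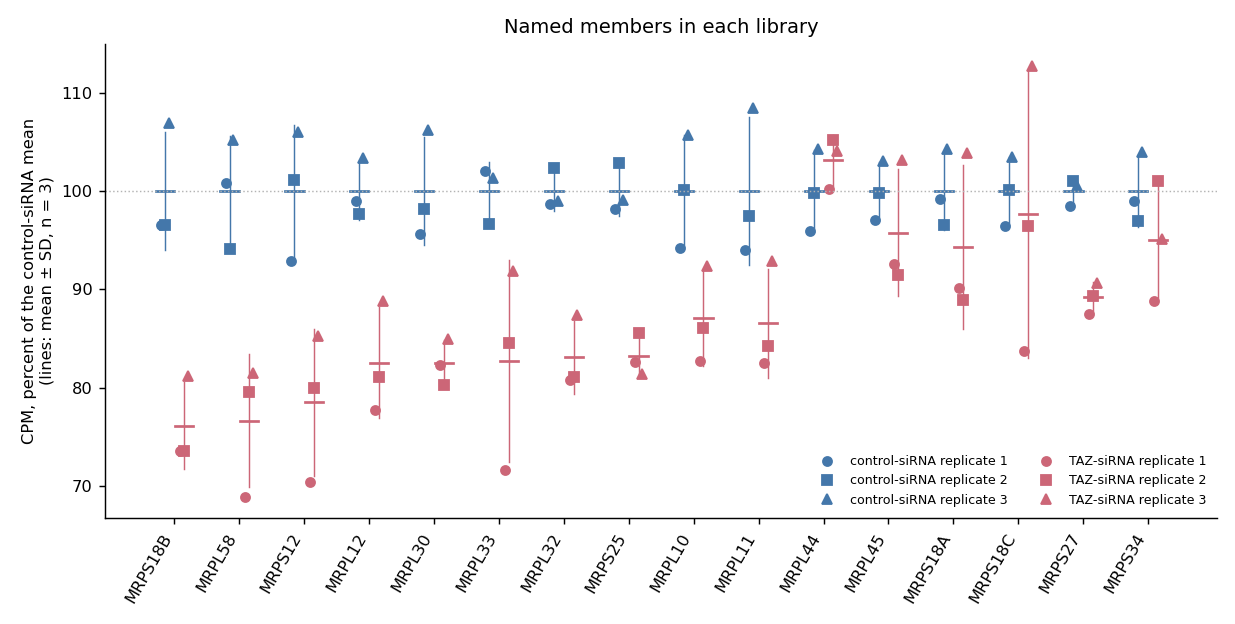
CPM in each library as a percentage of the control-siRNA mean (vertical axis, which does not start at 0) for the 16 named members, with control-siRNA libraries in blue, TAZ-siRNA libraries in red, horizontal lines at the mean and vertical lines of 1 SD (n = 3). TAZ-siRNA means range from 76.1% (MRPS18B) to 103% (MRPL44), and TAZ-siRNA replicate 3 (red triangles) is the highest of its group in 13 of the 16.

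By subunit, 14 of 51 large subunit members fell (27.5%) with a median log2 fold change of -0.16, and 9 of 26 small subunit members fell (34.6%) with a median of -0.15, each beside 10.2% of all genes tested. The 13 genes that passed beyond those described above were MRPL3, MRPL4, MRPL15, MRPL21, MRPL28, MRPL37, MRPL38, MRPL42, MRPS2, MRPS15, MRPS16, MRPS24 and MRPS33, with log2 fold changes from -0.26 (MRPS24) to -0.16 (MRPS16). Of the members with a bacterial counterpart, 15 of 46 fell (median -0.16), and of those found only in mitochondria, 8 of 31 fell (median -0.14), where MRPS18A and MRPS18B were counted with the latter class as the current nomenclature does. MRPS36, which is no ribosomal protein, was nearly level between the groups (log2 fold change -0.0019, adjusted p = 0.989). No difference between these classes was tested.

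Summed over all members, the deposited TPM was 5873, 5902 and 5934 with control-siRNA and 5402, 5523 and 5609 with TAZ-siRNA. The TAZ-siRNA mean was thus 93.4% of the control mean (90.4% on the FPKM scale and 90.1% in CPM), and the groups did not overlap. Both subunits contributed: the large subunit genes summed to 4116 ± 34.3 TPM with control-siRNA and 3839 ± 81.8 TPM with TAZ-siRNA, and the small subunit genes to 1739 ± 4.59 and 1622 ± 21.5 TPM (SD, n = 3). Without the 5 most abundant members the TAZ-siRNA sum was 94.2% of the control sum. The sums are a description, and no test was run on them.

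**Figure D3:**
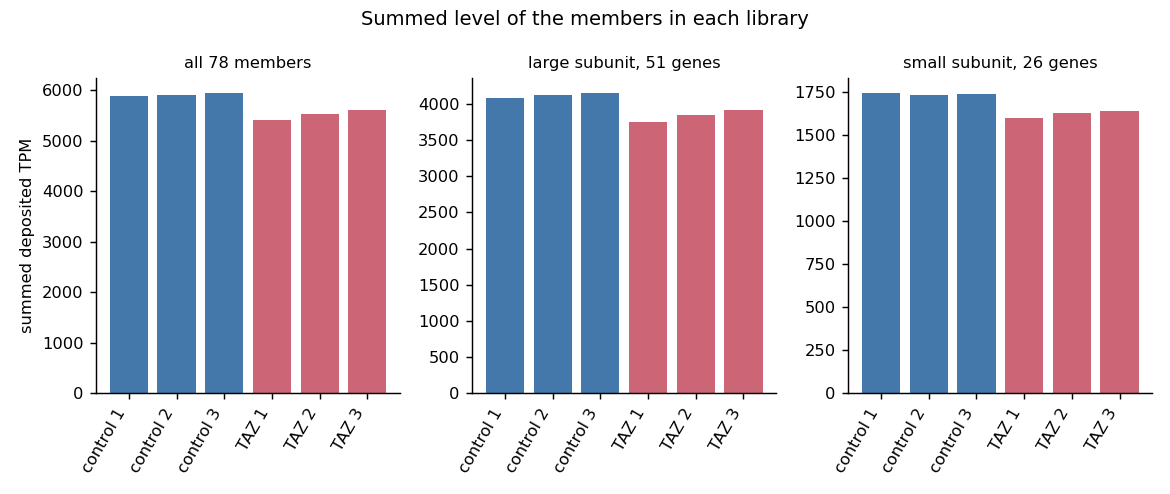
Summed deposited TPM (vertical axis from 0) of all 78 members, of the 51 large subunit genes and of the 26 small subunit genes in each library, with control-siRNA in blue and TAZ-siRNA in red. In each panel every red bar is lower than every blue bar, by a few percent.

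The log2 fold change rose with transcript length over all genes tested (Spearman's rank correlation 0.24) and less so over the members (0.10). Over the members its correlation with GC content was -0.30. The members have short transcripts, with a median length of 1288 bases against 2978 bases over all genes tested, and short genes as a whole were lower with TAZ-siRNA: the median log2 fold change was -0.13 over the 1629 genes under 1000 bases, -0.07 over the 3414 genes from 1000 to 2000 bases, -0.0046 over the 6179 genes from 2000 to 4000 bases and 0.06 over the 5744 genes of 4000 bases or more. In the same classes the members had medians of -0.17 (24 genes), -0.14 (37 genes), -0.07 (11 genes) and -0.20 (6 genes). In these classes 7, 10, 2 and 4 members fell (29.2%, 27.0%, 18.2% and 66.7%), beside 10.0%, 12.5%, 10.8% and 8.37% of all genes tested. The median of the 6 members of 4000 bases or more lay on the other side of 0 from the median of long genes. MRPS25 is among these 6, and its most abundant entry was a predicted non-coding transcript of 8420 bases. Lengths in these classes are means over a gene's transcripts weighted by TPM, whereas the GC/length correction used the median length of a gene's transcripts.

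The libraries showed the same pattern. Relative to the mean of the 6 libraries on the log2 scale, the median member lay at 0.05, 0.05 and 0.11 in the control-siRNA libraries, at -0.13 and -0.10 in TAZ-siRNA replicates 1 and 2 and at 0.03 in TAZ-siRNA replicate 3, and genes under 1000 bases lay at 0.03, 0.02, 0.09, -0.11, -0.08 and 0.05 in the same order. TAZ-siRNA replicate 3 thus lay on the side of the controls for both. With the GC/length correction 15 members fell and 0 rose, beside 13.5% of all genes tested lower and 13.3% higher. Of these 15, 13 were among the 23 called without the correction (MRPL3, MRPL10, MRPL12, MRPL30, MRPL37, MRPL58, MRPS2, MRPS12, MRPS16, MRPS18B, MRPS25, MRPS27 and MRPS33), and MRPL11 and MRPL19 were added. A correction for length alone also gave 15 (12.9% of all genes tested lower and 12.7% higher), as did one with lengths weighted by transcript abundance (13.6% and 13.5%), whereas one for GC content alone gave 23 (11.1% lower). The replicate block together with the GC/length correction gave 18 (15.6% and 14.6%). The part of transcript length in the members' values was not tested beyond these corrections.

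**Figure D4:**
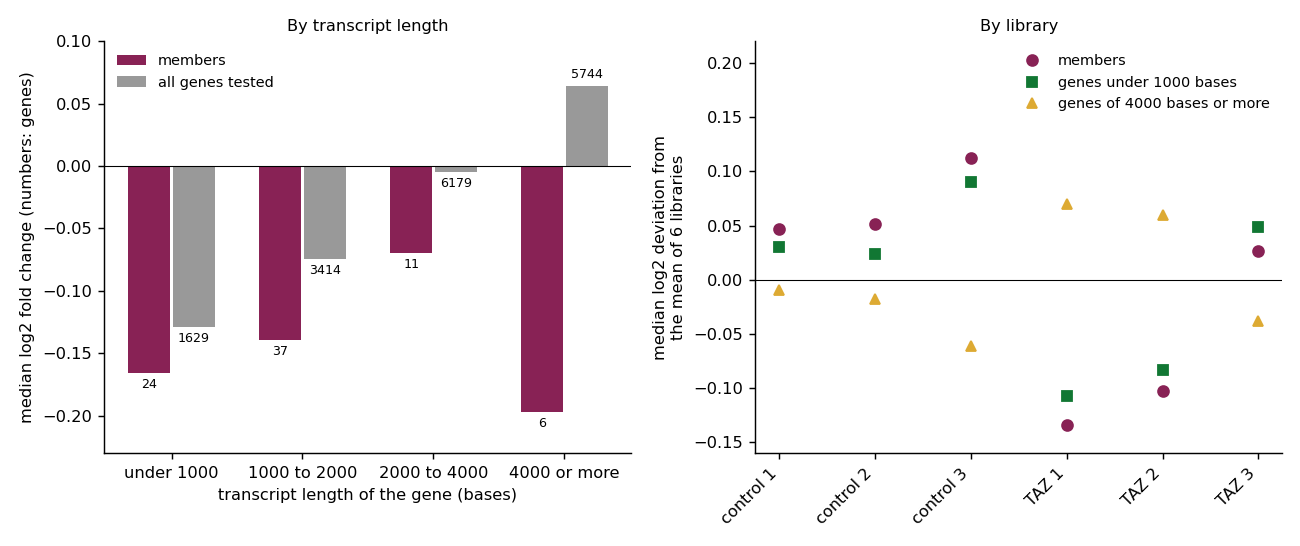
Left, median log2 fold change (vertical axis) of the members and of all genes tested in 4 classes of transcript length, with the number of genes at each bar: the members are below 0 in each class, from -0.07 to -0.20, and all genes run from -0.13 to 0.06. Right, median log2 deviation of the members, of genes under 1000 bases and of genes of 4000 bases or more in each library from the mean of the 6 libraries: members and short genes lie on the same side of 0 in each library and long genes on the other.

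The members are spread over 21 chromosomes, with 8 each on chromosomes 1, 2 and 17, of which 2, 2 and 4 fell. On chromosome 7, 3 of 4 fell. Over all chromosomes together 10.2% of all genes tested fell, and shares for single chromosomes were not computed. Of the 70 members with a promoter entry, 26 have the start of another gene on the opposite strand within 1000 bases of their own. In total, 23 distinct neighbours of this kind were tested. Of these 23 neighbours 2 fell (SKA3 and PTCD2), 3 rose (PPP1R10, TMEM63B and ZNF189) and their median log2 fold change was -0.08, so that the shares called were near those of all genes tested (10.2% lower and 11.9% higher). Of the 8 that adjoin a member that fell, 1 fell and 1 rose. MRPS18B and PPP1R10, whose starts are 597 bases apart, gave -0.39 and 0.52, and MRPS27 and PTCD2, whose starts are 133 bases apart, gave -0.17 and -0.33. MRPL46 and MRPS11 are each other's neighbour, 320 bases apart, and neither passed the test.

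The effect of reads shared with other genes on the calls was not tested. Of the 23 members that fell, 20 overlap no other gene of the table with a mean of at least 1 CPM. The others were MRPL37, which shares 58 bases with SSBP3 (0.19, adjusted p = 0.0909), MRPS18B and MRPS25. MRPS18B with PPP1R10 (1288 shared bases) and MRPS25 with NR2C2 (7023 shared bases) overlap genes whose log2 fold change was 0.52 and 0.31, opposite to their own. The table also lists 48 pseudogenes named after members. Of these, only MRPL45P2 and MRPS31P5 had at least 10 counts in every library, at means of 4.55 to 5.25 and 8.97 to 9.40 CPM in the 2 groups. Whether reads were exchanged between these pseudogenes and MRPL45 or MRPS31 was not tested.

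The 78 members have 244 transcripts in the table. In 43 members a single transcript held at least 90% of the gene's TPM, among them MRPL12 (the only one listed), MRPL58 (94.9% with control-siRNA and 95.5% with TAZ-siRNA), MRPL30 (97.5% and 95.7%) and MRPS18B (95.1% and 96.2%). MRPS25 differed, since its most abundant entry was a predicted non-coding transcript of 8420 bases (53.9% with control-siRNA and 48.1% with TAZ-siRNA). Of the 53 members with several transcripts, 12 had a share of the main transcript that did not overlap between groups, beside 11.6% of the 12182 tested genes with several transcripts. One of them was MRPL40, with a shift in share from 53.9 ± 7.58% to 67.5 ± 3.52% for its main transcript (SD, n = 3), and the largest shift of a mean, in MRPL18, came with overlapping groups (means of 71.6% and 53.8%). Neither was tested, and both were picked after their values were seen.

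Other genes of mitochondrial gene expression were counted in lists drawn up by function. Of the 5 mitoribosomal proteins with other symbols, 2 fell and 0 rose, beside 10.2% and 11.9% of all genes tested. AURKAIP1 (-0.27, adjusted p = 0.0110) and GADD45GIP1 (-0.20, adjusted p = 0.0440) fell, and DAP3, CHCHD1 and PTCD3 were not called (-0.19, 0.04 and -0.03). With the GC/length correction 1 of the 5 fell (13.5% of all genes tested), and with length alone 0 fell (12.9%). Of 29 genes for assembly of the ribosome and modification of its rRNA, 10 fell and 0 rose (median -0.16), beside 10.2% and 11.9% of all genes tested. The largest of these falls were in MRM1, a methyltransferase of the large subunit rRNA (6.78, 7.81 and 6.45 CPM with control-siRNA and 4.36, 5.50 and 4.14 CPM with TAZ-siRNA, log2 fold change -0.59 ± 0.129, adjusted p = 0.00873), RBFA, an assembly factor of the small subunit (-0.46, adjusted p = 0.00720), MTERF3 (-0.36, adjusted p = 0.00228) and the GTPase MTG1 (-0.34, adjusted p = 0.00618). The MRM1 groups did not overlap, and this was the only gene of the list that changed by more than 1.5-fold.

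Of 27 genes for translation factors and mRNA handling, 8 fell and 1 rose (median -0.13), beside 10.2% and 11.9% of all genes tested. PNPT1, the polynucleotide phosphorylase of mitochondria (-0.37, adjusted p = 0.00107), MRRF, the ribosome recycling factor (-0.33, adjusted p = 0.00180), and LRPPRC, which stabilises mitochondrial mRNAs (330, 328 and 316 CPM with control-siRNA and 268, 255 and 268 CPM with TAZ-siRNA, -0.30 ± 0.0516, adjusted p = 0.00280), fell most, and FASTKD1 rose (0.29, adjusted p = 0.0387). Of 20 genes for mitochondrial aminoacyl-tRNA synthetases and the amidotransferase that completes glutaminyl-tRNA, 4 fell, among them MARS2 (-0.27, adjusted p = 0.0288) and WARS2 (-0.24, adjusted p = 0.00967), and LARS2 rose (0.23, adjusted p = 0.0419), beside the same shares of all genes tested. After the GC/length correction the medians of these 3 lists were -0.15, -0.12 and -0.10, compared with -0.06 for the members.

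Of 10 genes for the transcription of mitochondrial DNA, 2 fell and 0 rose, beside 10.2% and 11.9% of all genes tested, namely MTERF1 (-0.25, adjusted p = 0.0384) and TFB2M (-0.24, adjusted p = 0.0481). Of the 13 mRNAs that the mitochondrial ribosome translates, 0 fell and ND6, the only one of the light strand, rose (70.7, 59.3 and 64.9 CPM with control-siRNA and 81.1, 85.3 and 70.7 CPM with TAZ-siRNA, 0.28 ± 0.0806, adjusted p = 0.0310), although its groups met at 70.7 CPM. The 13 mRNAs summed to 108355, 101528 and 98021 TPM with control-siRNA and to 106911, 113534 and 102854 TPM with TAZ-siRNA, so that the groups overlapped. They were measured in libraries selected for polyadenylated RNA. Whether counting used the strand is not given, so the counts of ND6 may hold reads of the other strand, which was not tested.

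Among 12 regulators of nuclear genes for mitochondria, 1 fell and 0 rose, a share near the 10.2% of all genes tested that were lower. This gene was MYC, at 138, 129 and 132 CPM with control-siRNA and at 104, 99.9 and 120 CPM with TAZ-siRNA (-0.30 ± 0.0662, adjusted p = 0.00973). The log2 fold changes of the others were 0.11 for NRF1, 0.08 for GABPA, -0.01 for GABPB1, 0.19 for GABPB2, 0.02 for ESRRA, 0.31 for PPARGC1A, -0.17 for PPARGC1B, -0.15 for PPRC1, 0.10 for YY1, 0.06 for TFE3 and 0.12 for HCFC1. A relation between MYC and the members was not tested. For comparison, a list added after the data were seen, the genes for proteins of the cytosolic ribosome, had 12 of 78 tested genes lower and 0 higher, beside 10.2% and 11.9% of all genes tested (median -0.17, and -0.09 after the correction). All 78 had a log2 fold change below 0 (50.8% of all genes tested). At an unadjusted p under 0.05 in edgeR's test 40 were lower and 0 higher, beside 17.4% and 18.4% of all genes tested. Their summed TPM with TAZ-siRNA was 92.2% of the control mean, with overlapping groups.

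**Figure D5:**
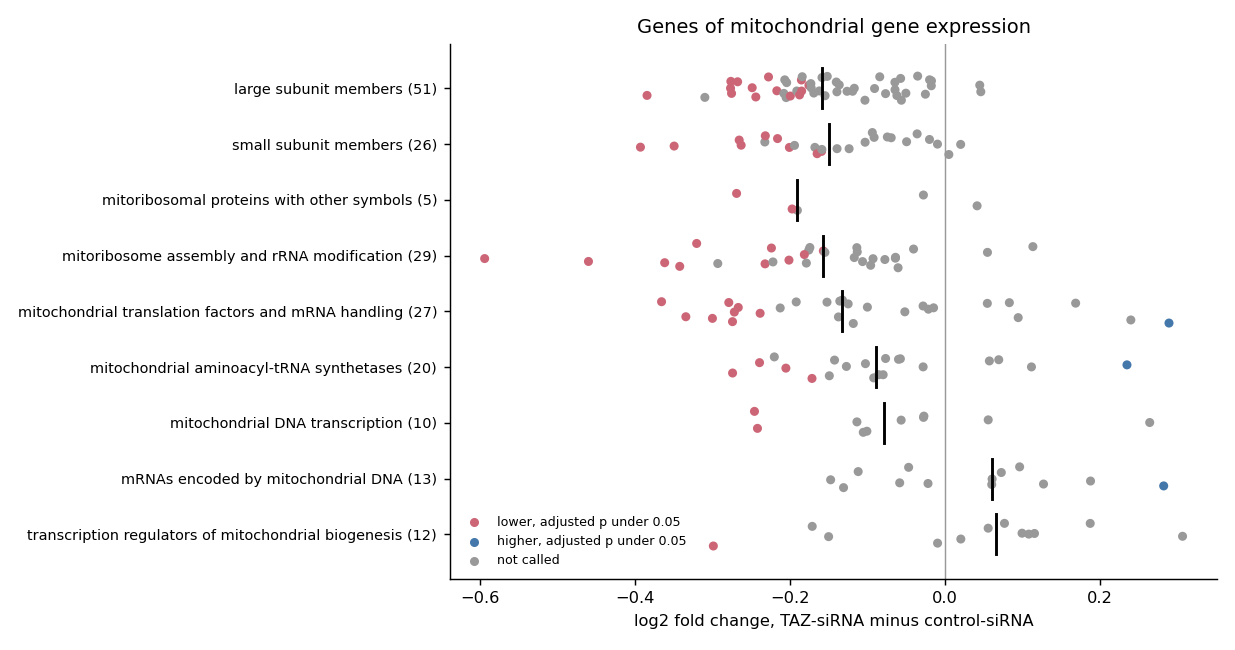
Log2 fold change (horizontal axis) of each large and small subunit member and of each tested gene in 7 lists of mitochondrial gene expression, with the number of genes after each name, black lines at the medians, red points lower and blue points higher at an adjusted p under 0.05. Medians run from -0.19 (proteins with other symbols) to 0.07 (regulators), and 3 points of 116 in the 7 lists are blue.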

How the data were processed

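Sequencing was of stranded, polyadenylated mRNA libraries, read as paired ends. After adapter trimming the authors aligned to GRCh38 (HISAT2) and obtained gene and transcript levels for RefSeq models (StringTie). The submitters' processing notes instead list Bowtie 0.12.2 and, beside GRCh38, the mouse build mm8; the deposited tables hold human RefSeq genes, and which aligner made the counts was not settled here. The deposited estimated counts are whole numbers per gene and transcript made by the authors and were not normalised. In the deposited FPKM the authors divided by transcript length and library size; in the deposited TPM they divided by length and set each library to the same sum. Whether counting used the strand is not given in the sources used here, so reads of overlapping genes may be shared.

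Groups and replicate numbers followed the sample descriptions. The 2 groups were compared on the counts with edgeR 4.0.16 (R 4.3.3): TMM factors, filterByExpr (minimum count 10), the quasi-likelihood test in its robust form, group as the only term, p-values adjusted by Benjamini-Hochberg across the genes tested, and a two-sided threshold of 0.05. Log2 fold changes are TAZ-siRNA minus control-siRNA, and CPM uses TMM library sizes. A count of 3 corresponds to 0.0411 to 0.0618 CPM. The standard error of a log2 fold change is its size divided by the square root of the test's F statistic. It thus draws on variance information shared across genes as well as on the 3 cell preparations per group. The method was also run on simulated counts with the same relative spread between libraries for every gene. No trend with length and no outlying library was simulated, so this run does not bear on those features of the data.

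Alternatives were DESeq2 1.42.0, upper-quartile factors, other count filters, a block for the replicate number, correcting each library for GC content and length (splines with 5 degrees of freedom, GENCODE transcripts for GC content), limma 3.58.1 with FPKM on the log2 scale after adding 1 or 0.1, a threshold of 0.01 and leaving out each library. Corrections for GC content or length alone, one with expression-weighted length and the list of cytosolic ribosomal protein genes were added after seeing the data. Both properties were known for all 78 members and for 89.7% of genes tested. The other genes, among them the 13 mRNAs of mitochondrial DNA, stayed in these fits without a correction. Length in these corrections was the median over a gene's transcripts, except in the expression-weighted one. Whether the replicate numbers pair the libraries was not settled. Correlations of deviations ran from -0.0173 to 0.0698 between same-numbered libraries and from -0.0951 to 0.100 between the others.

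The members and lists were chosen with earlier results of these data known. Genes named with values in each library were the 8 largest falls among members with an adjusted p under 0.05 and no overlap between groups (no member rose), and 12 members chosen by function. The highest and lowest 5 members by TPM, up to 4 called genes per list and all regulators were named by value. Promoters came from RefSeq (GRCh38.p14), matched by gene ID.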

Additional observations from a re-analysis of the deposited data

How the results depend on the processing

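The count of 23 members lower was 26 with DESeq2 or with at least 10 counts in every library, 24 with upper-quartile factors, 22 with no filter, 17 with limma at either pseudocount and 6 at an adjusted p under 0.01. It was 15 with the GC/length correction, with length alone and with expression-weighted length, and ran from 6 to 46 with a library left out. No member rose under any of these. The median of -0.16 became -0.061 with GC content and length, -0.068 with length alone and -0.060 with expression-weighted length, and the summed level of 93.4% became 90.4% in FPKM and 90.1% in CPM.

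With the replicate number as a block, 37 members were lower, and 18 with the block and the GC/length correction (median -0.062). Whether the numbers pair the libraries was not settled. All correlations of deviations between the groups were small. The highest for TAZ-siRNA replicates 2 and 3 were with the control-siRNA library of their own number (0.0086 and 0.070). For TAZ-siRNA replicate 1 it was with control-siRNA replicate 2 (0.100).

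Of the 116 other genes of mitochondrial gene expression, 27 were lower and 3 higher. Shares of all genes tested follow in brackets (here 10.2% and 11.9%). The GC/length correction gave 37 lower (13.5%), and the block with the correction 43 (15.6%). The 13 mRNAs of mitochondrial DNA in this set had no GC value and so received no correction. Of these 13, 2 were counted lower and 2 higher in the fit with the GC/length correction. A threshold of 0.01 gave 12 lower (4.38%) and 0 higher (5.76%). Leaving out a library gave 11 to 40 lower (4.84% to 16.1%) and 0 to 6 higher (6.39% to 17.6%). The number higher was 5 with the block (15.3%), 8 with the correction (13.3%) and 9 with both (14.6%). It was 7 with length alone (12.7%), 7 with expression-weighted length (13.5%) and 1 with limma at either pseudocount (8.35% and 8.48%).

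Values near 0 changed sign with the correction, the block with the correction, length alone and expression-weighted length, in that order: MRPL45 to 0.013, 0.013, 0.0030 and 0.018, MRPS18A to 0.010, 0.0090, 0.011 and 0.0086, MRPS18C to 0.11, 0.11, 0.068 and 0.081, and MRPS34 to 0.029, 0.028, 0.038 and 0.026. MRPS18C ran from -0.15 (without TAZ-siRNA replicate 3) to 0.068 (without TAZ-siRNA replicate 1) with a library left out. None of these passed the test in either direction. Of the other recomputed values of named members, 235 kept their direction and their side of the threshold, 27 lost the call and 9 gained it. The cause of these changes was not tested beyond the corrections themselves.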
